A study of Homo sapiens with 6 samples.

Results

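The kinesin motor genes of U373 cells, a human glioblastoma line, were followed across 6 expression arrays. The group holds 7 genes listed as mitotic kinesins (KIF2C, KIF11, KIF14, KIF23, KIFC1, KIF22 and KIF20A) and 2 transport kinesins, KIF5B and KIF3B, which serve as the contrast inside the family. Members were all probe sets whose platform annotation gives exactly 1 of these symbols or an older alias. This gave 10 of 12558 probe sets, standing for 8 of the 9 genes. KIFC1 was read by 3 probe sets and each other gene by 1. No probe set was matched to KIF20A, so its level was not analysed here.

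Each of the 6 groups held 1 array. Untransfected, untreated cells were sampled at day 1. Cells transfected with syk, the gene of a tyrosine kinase, were sampled untreated at day 1 and day 2, with ethanol at day 1, and with ethanol and ponasterone A at day 1 and day 2. Ponasterone A, called PonA here, is an ecdysteroid that switches on the transfected gene in an ecdysone-inducible system. The labels give 10 µM PonA for 6 to 48 hours without tying hours to arrays, so the exposure behind each day is not known. All transfected arrays share the syk construct, no untransfected cells received PonA, and day 2 had no ethanol array. Effects of PonA itself and of induced syk therefore cannot be told apart, and the labels do not say whether the transfected cells were 1 clone.

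Kinesins are motor proteins that use ATP to move along microtubules or to take them apart. Mitotic kinesins build the spindle, move chromosomes and complete cell division, and their messenger RNAs are known to peak late in the cell cycle. Transport kinesins carry vesicles and organelles and are also used by cells that do not divide. Many genes expressed in the G2 and M phases are known to carry CCAAT boxes, bound by NF-Y, and a cell cycle genes homology region, or CHR, bound by MuvB complexes.

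The promoter sequences are shown as a description of the genes, and their relation to the levels on the arrays was not tested. RefSeq promoter windows of GRCh38.p14, from 250 bases before to 50 bases after a gene's start, were matched to all 9 genes. KIF22 had 2 starts, of which the first is described. Searches on both strands covered CCAAT, the CHR letters TTTGAA and TTCGAA, and the Sp1 box GGGCGG, and none of these matches overlapped another. The 120 bases upstream of the start follow for 5 mitotic genes and both transport genes, read in the direction of transcription, with CCAAT and CHR matches in capitals. They lie at chr10:92593010-92593129 (plus strand, KIF11), chr15:69414229-69414348 (plus, KIF23), chr16:29790631-29790750 (plus, KIF22), chr1:200620752-200620871 (minus, KIF14), chr1:44739717-44739836 (plus, KIF2C), chr10:32056426-32056545 (minus, KIF5B) and chr20:32277531-32277650 (plus, KIF3B).
KIF11: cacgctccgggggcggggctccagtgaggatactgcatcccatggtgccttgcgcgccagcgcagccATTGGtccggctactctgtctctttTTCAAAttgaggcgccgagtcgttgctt
KIF23: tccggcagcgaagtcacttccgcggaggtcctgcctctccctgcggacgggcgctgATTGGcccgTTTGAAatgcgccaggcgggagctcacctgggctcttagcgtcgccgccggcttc
KIF22: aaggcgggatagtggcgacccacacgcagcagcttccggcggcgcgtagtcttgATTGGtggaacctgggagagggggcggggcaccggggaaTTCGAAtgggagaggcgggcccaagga
KIF14: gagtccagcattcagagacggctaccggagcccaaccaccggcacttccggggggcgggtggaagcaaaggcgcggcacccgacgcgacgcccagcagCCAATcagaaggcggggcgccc
KIF2C: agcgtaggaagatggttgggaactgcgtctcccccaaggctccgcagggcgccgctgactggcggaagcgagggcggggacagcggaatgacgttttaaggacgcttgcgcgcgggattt
KIF5B: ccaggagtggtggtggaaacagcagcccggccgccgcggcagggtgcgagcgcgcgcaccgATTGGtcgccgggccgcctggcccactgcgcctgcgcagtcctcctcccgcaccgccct
KIF3B: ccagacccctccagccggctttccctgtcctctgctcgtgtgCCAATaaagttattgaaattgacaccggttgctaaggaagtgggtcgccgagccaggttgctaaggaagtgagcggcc

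CCAAT matches were found in 6 of 7 mitotic and in both transport promoters, against 34.6% of 35116 RefSeq promoter windows. CHR letters were found in 5 of 7 mitotic promoters, against 16.4% of all windows, and in KIF5B but not KIF3B. The same 5 mitotic promoters and KIF5B held both kinds of match, as did 6.38% of all windows. In KIF11 the CCAAT match began 53 bases and the CHR match 28 bases upstream of the start, in KIF23 they began at 64 and 55, and in KIF22 at 66 and 27. In KIF14 and KIFC1 the CHR match lay 2 and 5 bases past the start. That of KIF5B began 140 bases upstream, farther out than in any of the 5 mitotic promoters described that held one. Counted from the second start of KIF22, however, its CHR match began 244 bases upstream, and that window held no CCAAT match. KIF2C held neither CCAAT nor CHR letters, and KIF20A held 2 CCAAT matches and no CHR letters. Sp1 boxes were found in 6 of 7 mitotic promoters, all but KIF23, in both transport promoters, and in 45.0% of all windows. These matches are letters in a window and not measured binding.

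**Figure D1:**
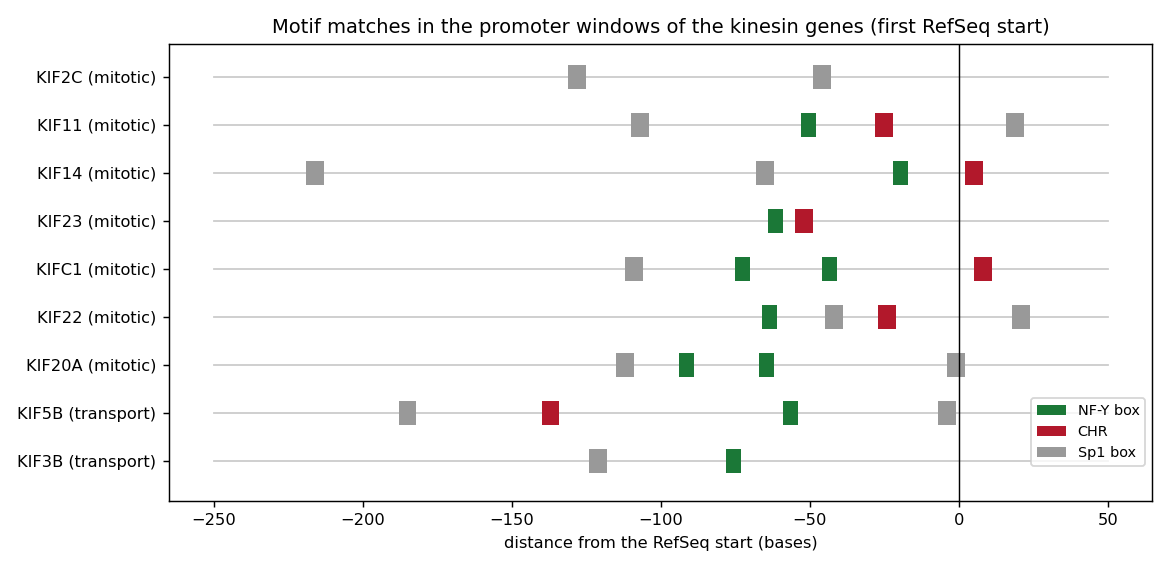
Motif matches along the promoter window of each kinesin gene, with the distance from the first RefSeq start in bases on the x axis and 1 line per gene. CCAAT boxes (NF-Y, green) occur in 8 of the 9 genes, CHR letters (red) lie near the start in 5 mitotic genes and 140 bases upstream in KIF5B, and Sp1 boxes are grey.

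Across probe sets, arrays correlated at a Pearson r of 0.946 to 0.985 in log2 signal. Beta-actin's 3' to 5' ratio, a measure of RNA integrity, was 0.960 to 0.987 on the day 1 arrays and 1.21 and 1.20 on the day 2 arrays, which hold 1 PonA and 1 untreated culture. The geometric mean of the spike-in probe sets lay between 157 and 501. Of 3 SYK probe sets, 1 exceeded its array's 40th percentile, used here as the limit of low signal, only with PonA, at 39.1 at day 1 and 72.5 at day 2, but its PonA effect missed the threshold (limma adjusted p = 0.0803). Another SYK probe set exceeded that limit on 5 arrays without a called change: its day 1 signals were 56.3 under PonA, 64.1 under ethanol and 73.1 in untreated cells, its day 2 signals 35.2 under PonA and 22.0 in untreated cells (effect 0.10, limma adjusted p = 0.877). The remaining one stayed under the limit throughout. Of 8 measured astroglial markers, AQP4 stayed under that limit on all arrays. VIM gave 4919 to 6458, and GFAP gave 1533 in untransfected and 103 to 229 in transfected cells. SLC1A3, a glial glutamate transporter gene, was the 1 of 7 tested astroglial markers that was called. It rose 7.38-fold with PonA (log2 2.88 ± 0.26 SE, limma adjusted p = 0.00410), from 22.8 and 38.8 to 193 at day 1 and from 24.0 to 225 at day 2, on the arrays where the kinesins fell, and its relation to their fall was not tested. The summed signal of the astroglial markers lay between 7998 and 9517 on the 6 arrays, most of it from VIM. That of 6 neuronal markers lay between 1411 and 2105, most of it from SYN1 and ENO2. Among these markers, NEFL gave 458 in untransfected and 10.1 to 26.5 in transfected cells. The sum of 4 epithelial markers lay between 513 and 680, most of it from KRT8. The sums were 177 to 308 for 3 oligodendrocyte markers and 118 to 152 for 5 haematopoietic markers.

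All 6 measured mitotic kinesin genes fell with PonA, while KIF3B, the measured transport kinesin, did not pass the test. The fall was between 2.69-fold for KIF14 and 7.15-fold for KIF2C in a fit over both days, and on every mitotic probe set both PonA arrays lay below every array without PonA. Signal is the MAS5 value of a probe set on a linear scale, in which the authors brought all arrays to a common level. Each array's 40th percentile, 22.7 to 26.5 units, served as a floor: weaker signals were raised to it before taking log2. The floor limits the falls of KIF22 and KIF23, so the order of the members depends on it: with the floor at the 20th percentile KIF22 had an effect of -3.29 and KIF2C of -2.84 on the log2 scale. The PonA effect is the log2 difference in an additive limma fit of the 5 transfected arrays (3 without and 2 with PonA) with a PonA term and a day term, given with its moderated standard error (SE). Its p-values, adjusted by Benjamini-Hochberg over 7934 probe sets with a threshold of 0.05, rest on 2 residual degrees of freedom. These hold the difference of ethanol and untreated cells and that between the days' PonA effects, not repeated cultures. Both PonA arrays also had ethanol, while of the 3 other transfected arrays only the ethanol array of day 1 did. The PonA effect therefore includes part of any ethanol difference. In whole cultures, fewer dividing cells and less RNA per cell cannot be told apart.

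All 8 mitotic probe sets passed the low-signal filter, which asks for 2 or more of the 5 arrays above the floor, and all 8 were called lower. KIF22 and KIF23 passed it only through arrays without PonA, and their PonA values were set to the floor. The direction of these 2 was thus fixed by the filter, and they add no support to the counts. The other mitotic probe sets were above the floor on every array. Over all tested probe sets 5.07% were called, 2.37% lower and 2.70% higher, and the median effect was 0.01. As the members were chosen with earlier results of these data known, their counts beside such shares are a description and not a test. On all 8 probe sets the PonA arrays lay below the 3 other transfected arrays, as did 15.4% of tested probe sets, and below the untransfected array too, as did 12.8%. The count of 8 rested on the day 2 arrays. Without the untreated or without the PonA array of day 2, the day term takes up the other one. Both settings therefore give the same effects, between -2.51 for KIF2C and -1.25 for 348_at of KIFC1. Fewer probe sets were then called, among the members and among all. The count was 4 with the floor at the 20th percentile, beside 0.483% of all tested probe sets called lower. It was 1, KIF11, when all 12558 probe sets were tested, beside 0.104%.

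**Figure D2:**
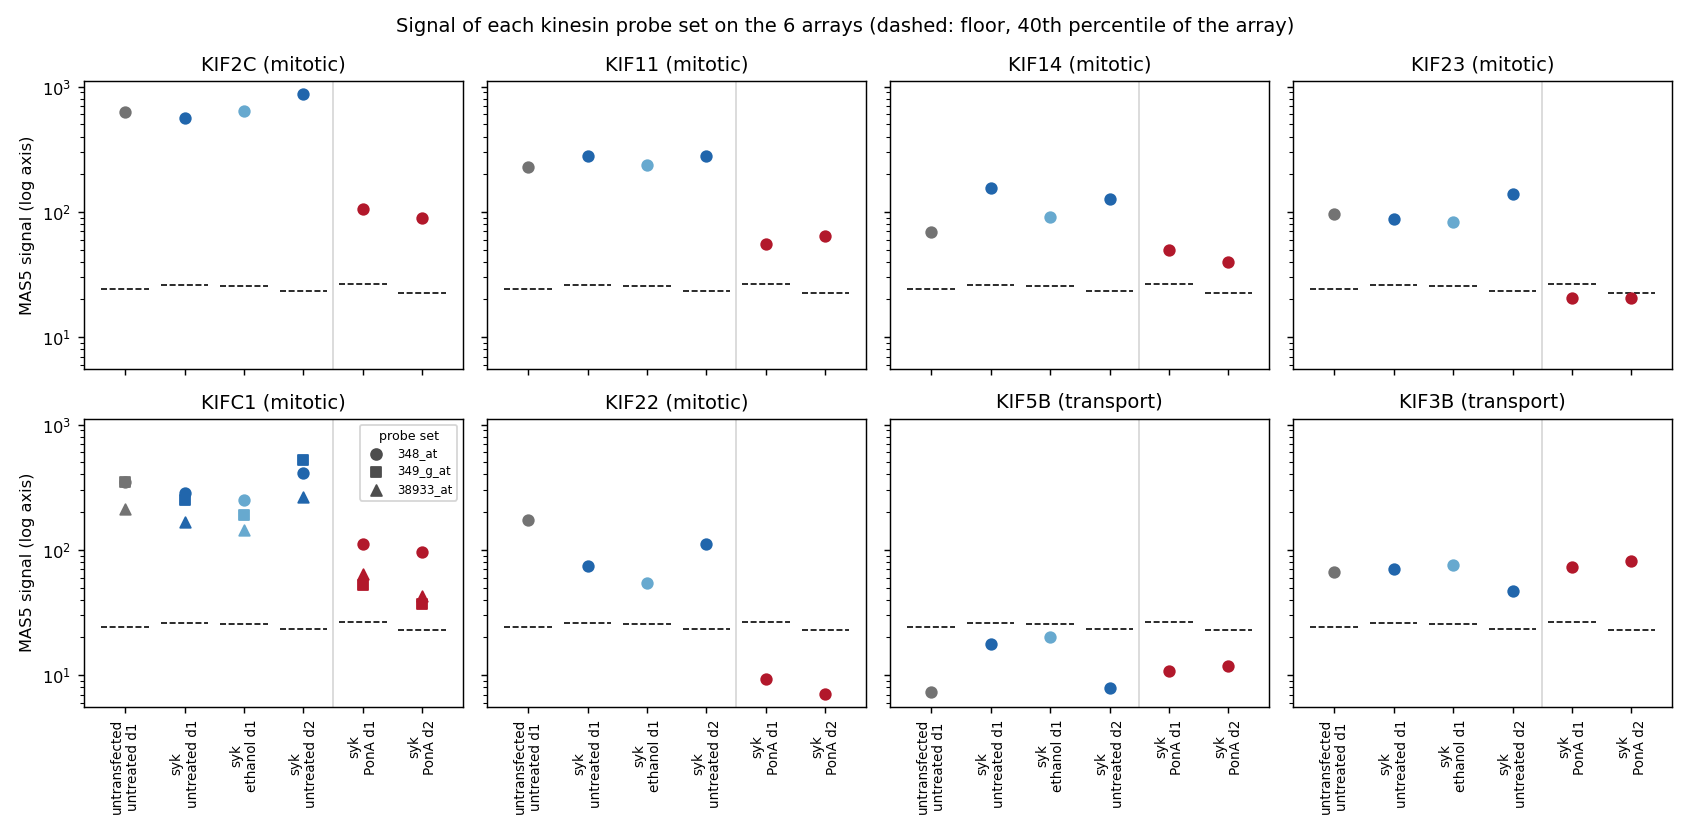
MAS5 signal (log axis) of each kinesin probe set on the 6 arrays, 1 point per array, with untransfected cells in grey, transfected cells without PonA in blue and with PonA in red. The mitotic probe sets are lower on both PonA arrays than on the other 4 arrays, KIF3B overlaps between them, and KIF5B stays under the floor (dashed).

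The motors that shape the spindle are KIF2C, KIF11, KIFC1 and KIF22. KIF2C (36837_at, gene at chromosome 1, 44739837 to 44767767, GRCh38.p14) encodes MCAK, which depolymerises microtubule ends and corrects faulty attachments at centromeres. Its signal was 628 in untransfected cells, 561 untreated and 642 with ethanol at day 1, 873 untreated at day 2, and 105 and 90.2 with PonA at day 1 and day 2. The lowest array without PonA was thus 5.33 times the higher PonA array. The PonA effect was -2.84 ± 0.23 (SE, limma adjusted p = 0.00395), a fall that was 6.10-fold against ethanol, 5.33-fold against untreated cells at day 1 and 9.68-fold at day 2. KIF2C is also the mitotic member with no CCAAT and no CHR letters in its window.

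KIF11 (40726_at, chromosome 10, 92593130 to 92655395) encodes Eg5, the motor that slides antiparallel microtubules apart and keeps the spindle bipolar. It gave 227 in untransfected cells, 282 untreated and 238 with ethanol at day 1, 281 untreated at day 2, and 55.3 and 64.6 with PonA at day 1 and day 2. The 4 arrays without PonA lay close together, and the PonA arrays stood well below them at both days. The effect was -2.18 ± 0.18 (SE, limma adjusted p = 0.00395), and KIF11 was the member whose call held under all 12 alternative settings, with effects between -2.24 and -1.92.

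KIFC1 (chromosome 6, 33391461 to 33409896) encodes a minus-end-directed motor that bundles microtubules at spindle poles and clusters surplus centrosomes. Its brightest probe set, 348_at, gave 346 in untransfected cells, 283 untreated and 249.8 with ethanol at day 1, 409 untreated at day 2, and 112 and 96.4 with PonA. Probe set 349_g_at gave 347, 252, 191 and 518 on the same arrays without PonA, and 52.9 and 37.2 with it. Probe set 38933_at gave 212, 166, 144 and 264, and 63.6 and 43.2. On the 3 probe sets the ethanol array was the lowest and the untreated array of day 2 the highest of those without PonA. Their effects were -1.61 ± 0.23, -2.80 ± 0.39 and -1.85 ± 0.31 (SE), with limma adjusted p of 0.0169, 0.0142 and 0.0247. The probe sets differed most at day 2, where KIFC1 was 4.24-fold, 13.9-fold and 6.11-fold lower with PonA, while at day 1 the falls against ethanol were 2.23-fold, 3.62-fold and 2.27-fold. Of these, 348_at and 38933_at were not called without the untreated or without the PonA array of day 2.

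KIF22 (356_at, chromosome 16, 29790751 to 29805385) encodes Kid, a motor on chromosome arms that pushes chromosomes towards the spindle equator. It gave 174 in untransfected cells, 74.4 untreated and 54.4 with ethanol at day 1, 112 untreated at day 2, and 9.31 and 7.13 with PonA. Both PonA values lay under the floor, so only bounds can be given. At day 1 KIF22 was at least 2.05-fold below its ethanol level and at least 2.81-fold below its untreated level, and at day 2 at least 4.94-fold below the latter. The effect on floored values was -1.71 ± 0.28 (SE, limma adjusted p = 0.0241), and -3.29 with the floor at the 20th percentile. Without either day 2 array KIF22 was not called.

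Of the motors of cytokinesis, KIF23 (37171_at, chromosome 15, 69414349 to 69448427) encodes MKLP1, which forms the centralspindlin complex at the spindle midzone. It gave 97.1 in untransfected cells, 88.6 untreated and 83.0 with ethanol at day 1, 139.6 untreated at day 2, and 20.6 and 20.4 with PonA. The PonA values were again under the floor, and the day 1 fall was at least 3.13-fold from ethanol and at least 3.35-fold from no treatment, and that of day 2 at least 6.14-fold. The effect on floored values was -2.09 ± 0.24 (SE, limma adjusted p = 0.00738).

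KIF14 (34563_at, chromosome 1, 200551497 to 200620751) encodes a midbody motor needed for the final cut between daughter cells. It gave 69.1 in untransfected cells, 156 untreated and 91.6 with ethanol at day 1, 126 untreated at day 2, and 49.9 and 39.99 with PonA. The groups did not overlap, but the arrays without PonA spread more widely than for KIF11. Against ethanol the fall was 1.84-fold, beside a fall of 1.70-fold from untreated to ethanol-treated cells, and against untreated cells it was 3.12-fold at day 1 and 3.14-fold at day 2. The effect of KIF14 was -1.43 ± 0.27 (SE, limma adjusted p = 0.0350). It was not called without either PonA array or without the untreated array of day 2.

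The transport kinesins were represented by 1 measurable gene. KIF3B (34713_at, chromosome 20, 32277651 to 32335011) encodes a subunit of kinesin-2, which drives transport within cilia and of vesicles. It gave 66.7 in untransfected cells, 70.0 untreated and 75.2 with ethanol at day 1, 47.2 untreated at day 2, and 72.8 and 81.1 with PonA. The PonA array of day 1 lay within the range of the others. KIF3B had an effect of 0.34 ± 0.22 (SE, limma adjusted p = 0.479), with a 95% interval of -0.20 to 0.87 that lies above the intervals of the mitotic probe sets, the nearest of which, that of KIF14, runs from -2.07 to -0.79. At day 2 KIF3B was 1.72-fold higher with PonA than in untreated cells, where the untreated array was its lowest. KIF5B (34732_at, chromosome 10, 32009015 to 32056425), the conventional kinesin heavy chain, lay under the floor on all 6 arrays, at 7.31 to 20.3, and was not tested. The contrast inside the family thus rests on KIF3B, and no test of the mitotic against the transport genes as groups was made.

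**Figure D3:**
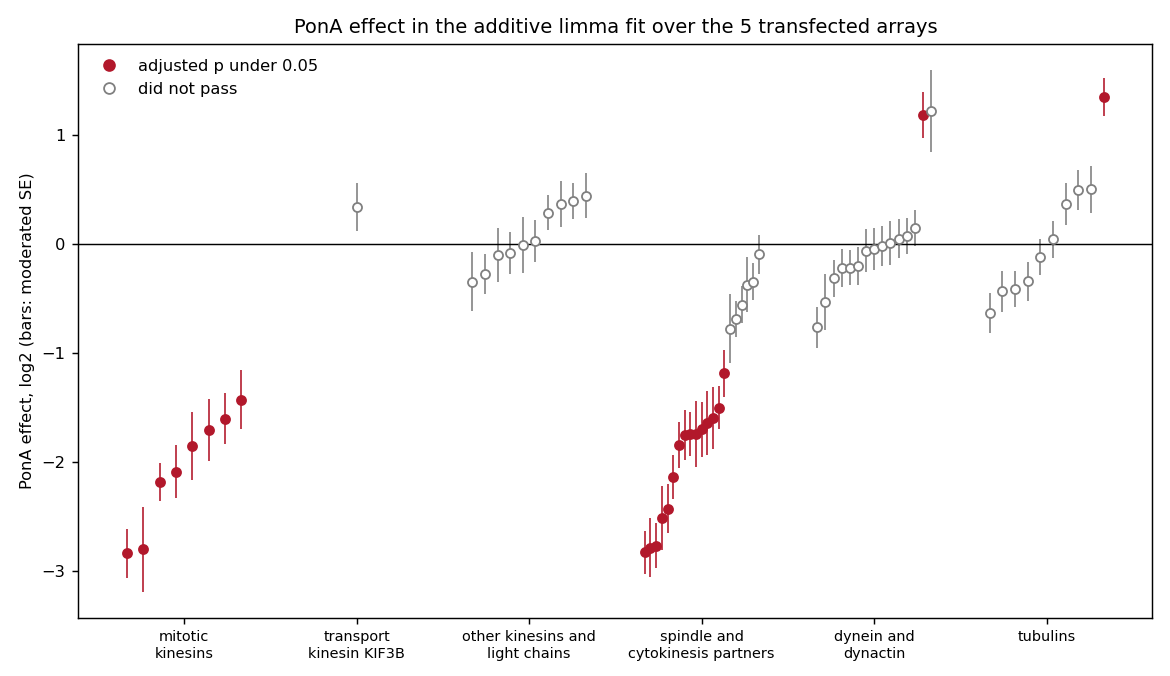
PonA effect (log2, additive limma fit over the 5 transfected arrays) of each tested probe set, with bars for the moderated SE and filled red points where the adjusted p passed 0.05. All 8 mitotic kinesin probe sets lie between -2.84 and -1.43, the other tested kinesins and light chains between -0.35 and 0.44, and 15 of 21 spindle and cytokinesis partners are called lower.

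Single arrays were also compared, with no test. Probe sets at least 2-fold apart were counted among those that exceeded the floor on either array. In comparisons with PonA, KIF22 and KIF23 entered these counts only through the array without PonA. PonA over ethanol and PonA over untreated cells at day 1 share the PonA array. Against ethanol, 7 of 8 mitotic probe sets were at least 2-fold lower, all but KIF14, and 0 higher, beside 2.40% lower and 3.23% higher of all probe sets. Against untreated cells, all 8 were lower at day 1, beside 3.12% lower and 3.58% higher of all. At day 2 all 8 were lower again, beside 4.04% lower and 4.67% higher of all. By the brightest probe set of each of 6 genes, the median difference was -1.40 against ethanol and -1.69 against untreated cells at day 1, and -2.21 at day 2. The medians over all probe sets were 0.03, 0.00 and -0.01. With the floor at the 20th percentile the mitotic medians were -2.06, -2.23 and -2.45, so the gap between the days was smaller.

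Ethanol alone went with smaller differences. Between ethanol-treated and untreated cells of day 1, the 8 probe sets differed by -0.77 (KIF14) to 0.19 (KIF2C) on the log2 scale, 7 of them lower with ethanol and 0 by as much as 2-fold. Of all probe sets, 1.15% were at least 2-fold lower and 1.04% higher. The spike-in mean was lower on the ethanol array, at 271, than on the untreated and PonA arrays of that day, at 474 and 501. Its part in these differences was not tested.

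Transfection without induction went with differences in both directions. KIF14 was 2.25-fold higher in untreated transfected than in untransfected cells, and KIF22 was 2.35-fold lower. The other 6 mitotic probe sets differed by less than 2-fold, between -0.46 and 0.31 on the log2 scale, and KIF3B by 0.07. Over all probe sets 2.64% were at least 2-fold lower and 3.08% higher. GFAP also differed between these 2 cultures, at 1533 and 103, and its relation to the kinesin differences was not tested. The spike-in mean was 157 on the untransfected and 474 on the untreated transfected array of day 1, and its part was not tested either.

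From day 1 to day 2, 6 of 8 mitotic probe sets were higher in untreated cells, by 1.44-fold to 2.06-fold, while KIF14 was 1.24-fold lower and KIF11 gave 282 and 281. Only 349_g_at of KIFC1 reached 2-fold. Of all probe sets 1.04% were at least 2-fold higher at day 2 and 2.15% lower. In PonA-treated cells KIF22 and KIF23 were under the floor at both days, and the other 6 probe sets differed by -0.56 to 0.22, with KIF11 the 1 that was higher. At 2-fold, 0 of these 6 were apart, beside 2.05% lower and 0.882% higher of all probe sets. The beta-actin 3' to 5' ratio was higher on both day 2 arrays. Its part was not tested.

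**Figure D4:**
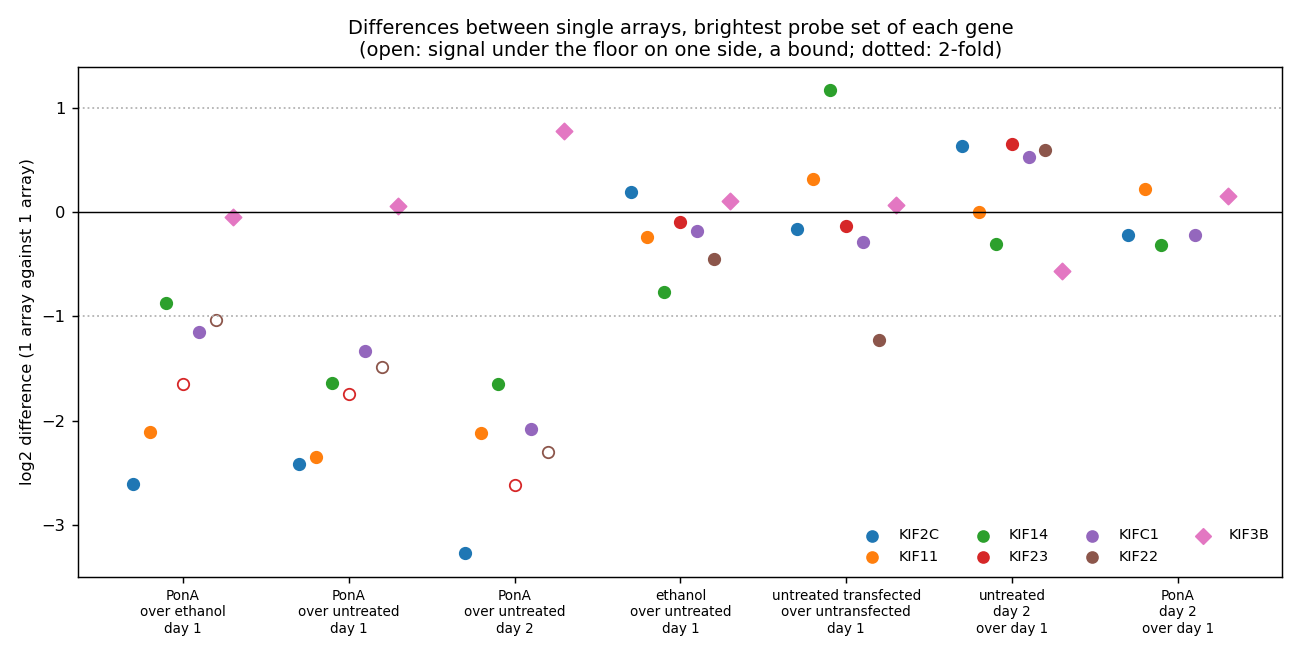
Log2 differences between single arrays for the brightest probe set of each gene, 7 comparisons along the x axis, some of which share an array. The mitotic genes (circles) lie at or below -0.88 in the 3 PonA comparisons at left, and open symbols are bounds, while KIF3B (diamonds) lies between -0.57 and 0.78 throughout.

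A limma fit with an interaction of PonA and day asked whether the effect differed between the days, on 1 residual degree of freedom. A negative term stands for a larger fall at day 2. For KIF22 and KIF23 both PonA signals lay under the floor, which was 26.5 at day 1 and 22.7 at day 2. Their falls are bounds, so their terms of -1.04 and -0.92 cannot show which fall was larger. With these included, the term was negative for 7 of 8 mitotic probe sets, among them every KIFC1 probe set, and 0.10 for KIF11. It called 0 of 7934 probe sets, or 0% of all, with 330 at an unadjusted p under 0.05. Of these, 2 were mitotic, both of KIFC1: 349_g_at had a term of -1.75 ± 0.44 (SE, unadjusted p = 0.00535, limma adjusted p = 0.917) and 38933_at one of -1.33 ± 0.41 (unadjusted p = 0.0135, limma adjusted p = 1.00). KIF3B had a term of 0.78 ± 0.40 (limma adjusted p = 1.00). Since day 2 had no ethanol array, any solvent effect of that day is part of this term.

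Of 30 other kinesin and light chain genes listed, 17 had a probe set and 10 were tested, by the brightest probe set of each. Of the 10, 0 passed the threshold in limma, 5 had a negative effect and the median was 0.01. The largest effects were 0.44 ± 0.21 (SE) for KIFC3, a minus-end-directed motor, 0.39 ± 0.17 for the kinesin-2 gene KIF3C, 0.37 ± 0.21 for the light chain gene KLC1 and -0.35 ± 0.27 for KIF2A, a microtubule depolymeriser related to KIF2C (limma adjusted p of 0.265 to 0.558). KIF2A gave 80.7 untreated and 40.9 with PonA at day 1, but 62.0 untreated and 68.9 with PonA at day 2. Further mitotic motors of this list, CENPE and KIF20B, named after their values were seen, lay under the floor on all 6 arrays.

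Most tested spindle and cytokinesis partners of the mitotic motors fell. Of 31 listed genes 21 had a probe set and were tested. Of these, 15 fell, 0 rose and 6 did not pass, beside 2.37% lower and 2.70% higher of all tested probe sets. The list was chosen with earlier results of these data known, so its count is a description and not a test. The effect was negative for all 21, and for 20 after quantile normalization, and the median effect was -1.70 beside 0.01 over all tested probe sets. AURKA, a mitotic kinase gene, fell with an effect of -2.83 ± 0.20 (SE). The cyclin genes CCNB1 and CCNB2, whose products drive entry into mitosis, fell with -2.79 ± 0.27 and -2.77 ± 0.21, and SPAG5, which encodes the spindle protein astrin, with -2.52 ± 0.29. These had limma adjusted p of 0.00395 to 0.00738. Leaving out the untreated or the PonA array of day 2 gave a median effect of -1.36, with all 21 negative. Fewer partners were then called, as over all probe sets. The count called lower was 5 with the floor at the 20th percentile, beside 0.483% of all tested probe sets. It was 1 without the low-signal filter, beside 0.104%.

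Genes of the opposite motor and of the microtubule track were called at 1 of 15 and 1 of 10, beside 5.07% of all probe sets. Of the dynein and dynactin genes 1 rose, 0 fell and the median effect was -0.04. DYNLT3, a dynein light chain gene, rose 2.27-fold (log2 1.18 ± 0.21 SE, limma adjusted p = 0.0301), a call lost without the PonA array of day 1, without either array of day 2, with the floor at the 20th percentile and without the low-signal filter. The adaptor gene BICD1 had an effect of 1.22 ± 0.38, the dynein intermediate chain gene DYNC1I1 of -0.77 ± 0.19 and PAFAH1B1, which encodes the dynein regulator LIS1, of -0.53 ± 0.26 (limma adjusted p of 0.136, 0.0816 and 0.332). Of the tubulin genes 1 rose, TUBA4A, an alpha-tubulin gene, 2.55-fold (log2 1.35 ± 0.17, limma adjusted p = 0.0108), 0 fell and the median was -0.04. The call of TUBA4A was lost in the same 5 settings. TUBG1, the gamma-tubulin of centrosomes, had an effect of -0.63 ± 0.18, and TUBB4A and TUBB3 had effects of 0.50 ± 0.22 and 0.49 ± 0.19 (limma adjusted p of 0.118 to 0.271). Within the alpha-tubulin genes, and within the beta-tubulin genes, sequences are much alike, so probe sets of the same kind may share signal.

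The genes with profiles most like the mitotic kinesins were ranked over all 6 arrays by the root mean square distance between centred log2 profiles, among 5562 other genes above the floor on at least 3 arrays. The nearest was CKS2, a subunit of cyclin-dependent kinases, at a distance of 0.06, against a median of 0.97 over these genes. It gave 1247 in untransfected cells, 1211 untreated and 1095 with ethanol at day 1, 1552 untreated at day 2, and 330.3 and 332 with PonA. H2AX, a histone variant of DNA repair, the separase gene ESPL1, the cyclin gene CCNA2, the phosphatase gene CDKN3 and the proliferation marker gene MKI67 followed at 0.11 to 0.17. GAP43, a growth cone protein gene, and SERPINB9, which encodes a granzyme inhibitor, came last of the 8 at 0.17 and 0.19. The PonA effects of these 8 genes, which the ranking selects for, were -2.20 to -1.73. Among the members themselves, KIF23 lay nearest to the mean of the other mitotic genes, at 0.12, and KIF14 farthest, at 0.59, while KIF3B lay at 1.12 from the mitotic mean. KIF22 lay at 0.51. These distances use floored values, and the PonA signals of KIF23 and KIF22 were set to the floor, so the order may depend on it.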

How the data were processed

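The deposited values are intensity of Affymetrix Human Genome U95 Av2 probe sets as MAS5 signal on a linear scale, per the submitters' processing notes, which give no version. Genome build and detection calls are not given in the sources used here. The mean per array without the lowest and highest 2% was 150.07 to 150.08, so the authors had scaled the arrays. Symbols came from the platform annotation, updated through Entrez identifiers to RefSeq GRCh38.p14: of 12558 probe sets that are no controls, 10943 had 1 symbol, 545 several and 1070 none. Signals under an array's 40th percentile were set to it before log2. limma 3.58.1 (R 4.3.3) was run on all tested probe sets and was checked on simulated data. All probe sets of the members are named. From each list the 4 genes with the largest absolute effect are named, and the 8 genes nearest in profile. Each list gene was read by its brightest probe set. Members and lists were chosen with earlier results of these data known. Precision is limited by the number of arrays, with 1 per condition. Alternatives were 2 other floor settings, quantile normalization, 2 other filters, limma-trend, no day term, and each array left out. No protein sequences were used here.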

Additional observations from a re-analysis of the deposited data

Results flagged for a closer look

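KIF2A, a microtubule depolymeriser related to KIF2C, had opposite differences at the 2 days. With PonA it was at -0.98 from untreated cells at day 1 and at 0.15 at day 2 on the log2 scale, which differ by 1.13. At day 1 PonA over ethanol was -0.46, and ethanol over untreated cells was -0.52. A PonA-by-day term over the 5 transfected arrays was 0.87 ± 0.47 (SE, unadjusted p = 0.105, limma adjusted p = 1.00), so the difference between the days did not pass the test.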

How the results depend on the processing

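Every tested member kept the sign of its PonA effect under all 12 alternatives. The mitotic count of 8 moved to 4 with the floor at the 20th percentile and to 1 without the low-signal filter, was 4 to 8 with 1 array left out, and stayed at 8 in the other 5 settings. The count over all probe sets, 402, was 107 with the 20th percentile floor, 29 without the filter, 625 with limma-trend and 111 to 725 with 1 array left out. KIF3B was not called in any of them. With the 20th percentile floor the median difference of the mitotic genes was -2.06 against ethanol and -2.23 against untreated cells at day 1. Beyond the day term, which the main fit holds, no paired analysis was possible because each condition has 1 array and the labels pair no cultures. Signals under the floor, as for KIF5B, KIF22 and KIF23 with PonA, have no order.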
